A study of Homo sapiens with 2 samples.

Results

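LACE-seq peaks of IGF2BP3 that lay on intronless protein-coding genes of human OE-19 cells were taken as every peak sharing at least 1 bp with a protein-coding gene whose canonical transcript in GENCODE release 44 is a single exon, with the replication-dependent histone genes left out. Replicate 1 had 171 of them among its 21142 peaks (0.809%) and replicate 2 had 180 among 20799 (0.865%), on 131 and 144 of 1057 such genes. OE-19 is an established line of adenocarcinoma cells that arose where the esophagus meets the stomach, and both libraries were made from that line, with no treatment given. Bound RNA was fixed to the protein by UV light, pulled down with an antibody against IGF2BP3, trimmed with micrococcal nuclease and turned into a library by linear amplification, so a peak marks where recovered RNA fragments pile up. The single group holds 2 replicates, and no control library was analysed here. The replicates are described as biological, without saying how they were grown. Without a control, how much RNA of a gene the cells hold and how strongly IGF2BP3 binds it cannot be told apart.

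IGF2BP3 is an RNA-binding protein of the IGF2BP family, which recognizes N6-methyladenosine (m6A), most often in the sequence GGAC, and is known to stabilize the mRNAs it binds. Intronless mRNAs are never spliced, so no exon junction complex, the protein mark that splicing leaves beside each junction and that is known to keep m6A away from short internal exons, is placed on them. Many intronless genes are retrocopies, made when a spliced mRNA was copied back into the genome. Others are old genes of signaling and transcription, such as those of the AP-1, CEBP and SOX factors.

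Coding sites called in both replicates within 50 nt of each other show what was found on single-exon transcripts. Of the 1057 genes, 935 have single-exon transcripts alone, and the rest, JUND among them, also have an annotated transcript with several exons. The 61 bases around the replicate 1 summit are given for 6 such sites, each inside the coding sequence and with no near-identical copy in another transcript, in lower case with GGAC in capitals, 5′ to 3′ on the gene strand of hg38. SOWAHC, an ankyrin repeat protein, was read at chr2:109615920-109615980, plus strand. HNRNPA0, an RNA-binding protein, was read at chr5:137753160-137753220, minus strand. JUND, an AP-1 transcription factor, was read at chr19:18281325-18281385, minus strand. SOX12, an HMG-box transcription factor, was read at chr20:326046-326106, plus strand. KCTD12, a subunit that associates with GABA-B receptors, was read at chr13:76885221-76885281, minus strand. TMEM185B, a transmembrane protein, was read at chr2:120222584-120222644, minus strand.
SOWAHC: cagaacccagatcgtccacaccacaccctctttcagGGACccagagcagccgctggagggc
HNRNPA0: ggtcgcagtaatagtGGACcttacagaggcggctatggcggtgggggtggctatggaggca
JUND: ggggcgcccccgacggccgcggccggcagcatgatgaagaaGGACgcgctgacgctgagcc
SOX12: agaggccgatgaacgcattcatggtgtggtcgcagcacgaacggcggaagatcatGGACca
KCTD12: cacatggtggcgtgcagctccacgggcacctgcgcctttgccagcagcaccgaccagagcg
TMEM185B: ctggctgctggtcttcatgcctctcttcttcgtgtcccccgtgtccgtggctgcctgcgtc

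The summits of the 2 replicates were 7 nt apart in SOWAHC, 29 nt apart in HNRNPA0 and 19 nt apart in JUND. They were 10 nt apart in SOX12, 32 nt apart in KCTD12 and 11 nt apart in TMEM185B. Of these 6 windows, 4 held GGAC and 2 did not.

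In intronless genes the summits lay mostly in the coding sequence. These positions were read on the 119 and 118 peaks that overlapped no exon of another gene and were not mitochondrial, while 47 and 57 overlapped such an exon and 5 in each replicate were mitochondrial. Among summits inside the canonical transcript, 77 of 117 (65.8%, Wilson 95% interval 56.8 to 73.8) in replicate 1 and 76 of 113 (67.3%, 58.2 to 75.2) in replicate 2 fell in the coding sequence. That sequence makes up 42.2% and 40.3% of the bases of the same transcripts, which gives a ratio of 1.61 ± 0.0768 (SD, n = 2 replicates) of the share of summits to the share of bases. The 3′ UTR held 29 of 117 summits (17.8 to 33.3%) and 17 of 113 summits (9.61 to 22.8%) against 48.5% and 49.9% of the bases, a ratio of 0.407 ± 0.149. Both regions stood on the same side of their share of bases in each replicate, and neither interval reached that share. Intervals of this kind cover counting error alone. Of the peaks read for position, 25 and 21 had a near-identical copy in another gene, as defined below. In a setting added after seeing the data, these were left out. The coding ratio was then 1.52 and 1.77 and the 3′ UTR ratio 0.548 and 0.272.

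The 5′ UTR and the stop codon gave no such pattern. In the 5′ UTR the replicates differed, with 11 summits (9.40%) in replicate 1 and 20 summits (17.7%) in replicate 2 against 9.37% and 9.79% of the bases, a ratio of 1.41 ± 0.569. Within 200 nt of the stop codon lay 20 summits (17.1%) and 24 summits (21.2%), against 17.7% and 16.7% of the bases, a ratio of 1.12 ± 0.215. Both intervals around the stop codon included the share of bases. When each summit was moved 146 or 147 nt downstream, the 5′ UTR ratio fell below 1, to 0.721, and the stop codon ratio became 1.60.

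**Figure D1:**
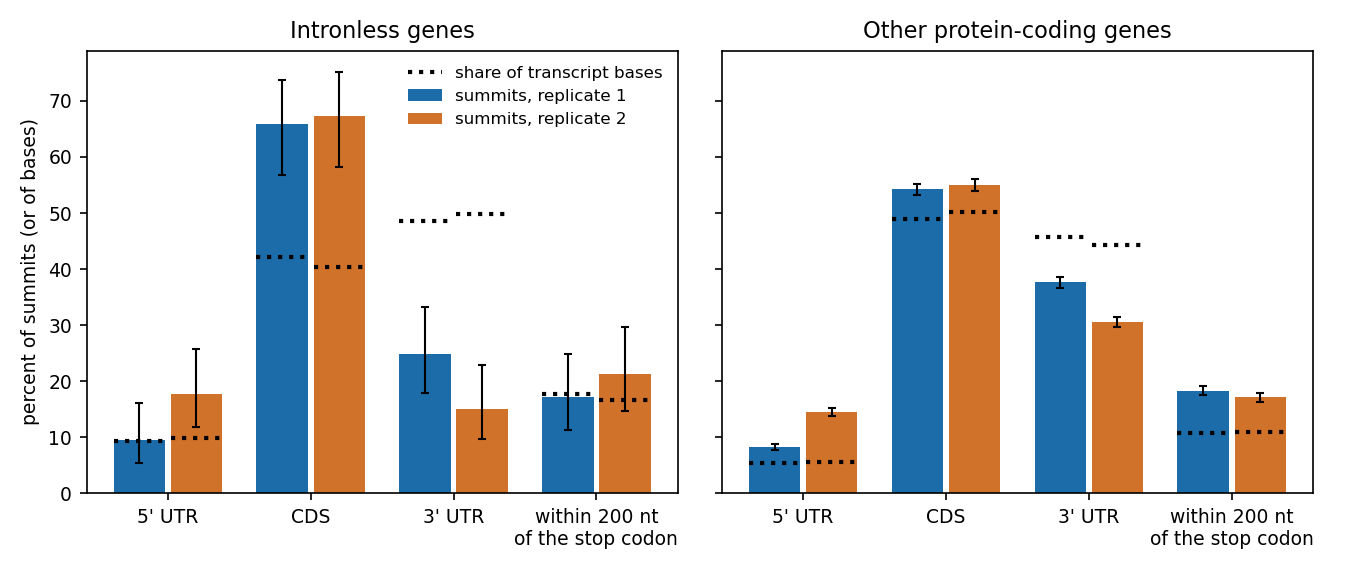
Bars give the percent of summits by region in intronless genes (left) and other protein-coding genes (right) for replicate 1 (blue) and replicate 2 (orange), whiskers are Wilson 95% intervals and dotted lines the percent of bases of the same transcripts. Coding bars of intronless genes reach 65.8% and 67.3%, above dotted lines at 42.2% and 40.3%. Summits in introns of the other genes are left out.

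Other protein-coding genes, read on summits inside an exon and on peaks that touch no other gene, stood nearer to their base composition in the coding sequence. Their coding share was 54.2% (9064 summits) and 55.0% (8868 summits) against 48.9% and 50.1% of bases, a ratio of 1.11 and 1.10, and the intronless ratios were 1.56 (interval 1.35 to 1.75) and 1.67 (1.44 to 1.87). In the 3′ UTR the other genes also stood below their share of bases, at 0.822 and 0.690. The intronless ratios there were 0.512 (0.368 to 0.688) and 0.301 (0.193 to 0.456). In the 5′ UTR the other genes stood above their share, at 1.52 and 2.60, against 1.00 (0.569 to 1.71) and 1.81 (1.20 to 2.63). Near the stop codon the other genes had ratios of 1.72 and 1.57, and the intronless genes 0.964 (0.640 to 1.41) and 1.27 (0.878 to 1.77). The intervals of the 2 gene classes did not overlap for the coding sequence or the 3′ UTR, and overlapped in both replicates for the 5′ UTR. Near the stop codon they overlapped in replicate 2 but not in replicate 1. No test of these differences was made. The 2 classes were also not read alike, since summits in introns were left out for the other genes. That kept 9064 of 13754 and 8868 of 13525 of their peaks on an exon of the canonical transcript. No summit inside an intronless transcript is lost in this way, and the effect on the comparison was not tested.

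Splice sites are part of most peaks elsewhere. Of the other protein-coding peaks on an exon of the canonical transcript, 8800 of 13754 (64.0%) and 8167 of 13525 (60.4%) ran across a 3′ splice site, where an intron ends and an exon begins, and 8.59% and 9.72% across a 5′ splice site. An intronless transcript has neither. Compared with all 18723 and 18647 other protein-coding peaks, on an exon or not, the full sets of 171 and 180 members were wider. Their median width was 415 and 445 bp against 337 and 346 bp. Their median fold enrichment, the peak caller's ratio of the pileup to the local background, was 6.64 and 6.94 against 6.82 and 7.11. Their median pileup, the number of fragments stacked at the summit, was 27 and 24 against 23 and 23. On the 119 and 118 peaks read for position, the summit sat at the middle, at a median of +1.0 and +2.5 nt (1.75 ± 1.06) along the gene strand. The quartiles were -56.8 and 50.5 nt in replicate 1.

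Outer edges did not treat the transcript ends alike. Peaks reached past the annotated 5′ end in 19 of 119 (10.5 to 23.6%) and 37 of 118 (31.4%, 23.7 to 40.2), a mean of 23.7 ± 10.9% over the replicates, and past the 3′ end in 2 of each (1.68% and 1.69%). Among other protein-coding peaks the 5′ share was also higher in replicate 2, at 6.74% and 14.6%, and the 3′ end was passed by 0.0945% and 0.0813%. Among peaks touching the canonical transcript the reach past the 5′ end had a median of 141 and 99 nt, with a largest value of 269 and 345 nt. The narrowest peaks of the lists were 293 and 294 bp wide, and how far the RNA itself reached was not tested. The first 300 nt of the transcript held 25 of 118 (21.2%) and 33 of 116 (28.4%) summits, and the last 300 nt held 3 (2.54%) and 2 (1.72%), against 14.5% and 13.7% of the bases in each of these stretches. Start codons were covered by 35.3% and 41.5% of the peaks and stop codons by 25.2% and 28.8%.

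**Figure D2:**
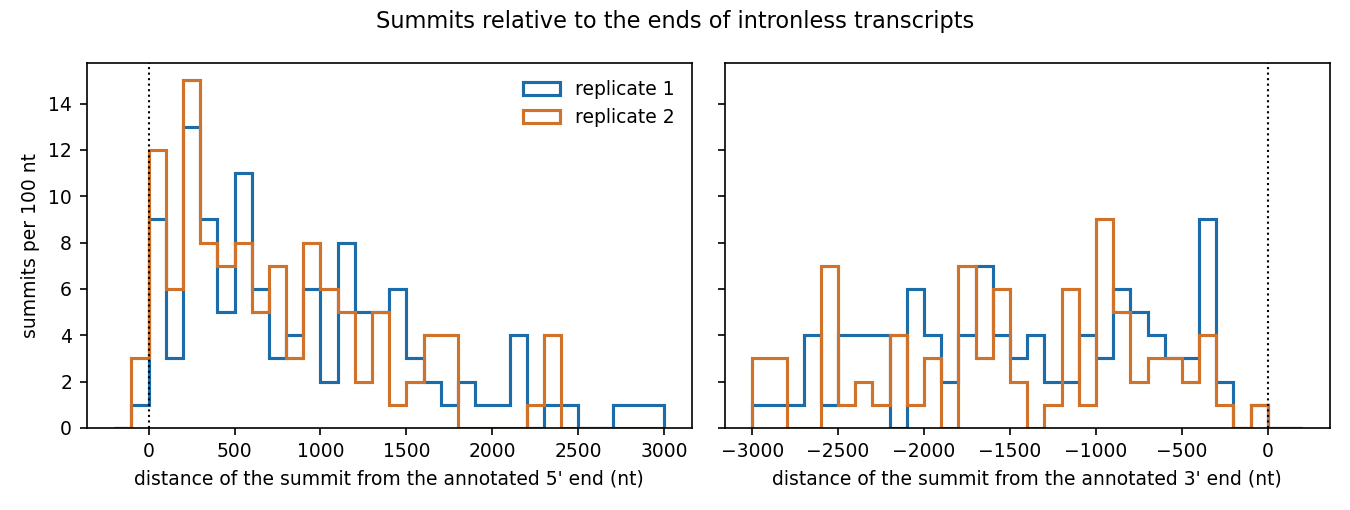
Histograms of the distance in nt from each summit to the annotated 5′ end (left) and 3′ end (right) of the canonical transcript, in bins of 100 nt, for replicate 1 (blue) and replicate 2 (orange); summits beyond 3000 nt are not drawn. The last 300 nt hold 3 and 2 summits, and the first 300 nt hold 25 and 33.

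About as many intronless peaks recurred as peaks in general. A peak of the other replicate overlapped 114 of 171 (66.7%, 59.3 to 73.3) and 109 of 180 (60.6%, 53.3 to 67.4), 63.6 ± 4.32% over both replicates, against 60.1% and 61.2% of all peaks. Recurrence followed the pileup. With a pileup of 14 or less, 13 of 32 (40.6%, 25.5 to 57.7) and 9 of 37 (24.3%, 13.4 to 40.1) recurred, against 39.8% and 39.6% of other protein-coding peaks of that height. With 15 to 36 the shares were 62.2% and 59.6% against 59.3% and 60.5%. With 37 or more, 45 of 49 (91.8%, 80.8 to 96.8) and 44 of 49 (89.8%, 78.2 to 95.6) recurred against 82.1% and 83.0%. Each of these other shares lay inside the members' interval. Summits were less repeatable than peaks, since among the 110 pairs outside the mitochondrial genome the median distance between summits was 102 nt and 38 pairs lay within 50 nt. The pairs were built from replicate 1 peaks, so a wide replicate 2 peak can stand in several of them, as in JUND, which can lengthen the distances. Both summits fell in the same region of the canonical transcript in 87 pairs, and in 5 both lay outside it on the same side.

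Fewer intronless genes carried a peak than protein-coding genes as a whole. A peak lay on 131 of 1057 (12.4%) and 144 of 1057 (13.6%), against 41.0% and 42.2% of all 20046 protein-coding genes, and 105 intronless genes had a peak in both replicates. Few genes of several families of restricted expression carried a peak, with 1 of 214 olfactory receptors, 2 and 1 of 24 taste receptors and 0 and 1 of 94 keratin-associated genes of the hair shaft. None of the 16 protocadherins, 16 interferons or 4 late cornified envelope genes of the skin had one in either replicate. None of 15 POU and basic helix-loop-helix factors had a peak. By contrast 4 and 5 of the 5 AP-1 and immediate early genes, all 3 CEBP genes, 3 of 4 HSP70 genes and 3 and 4 of 6 small GTPases carried one.

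**Figure D3:**
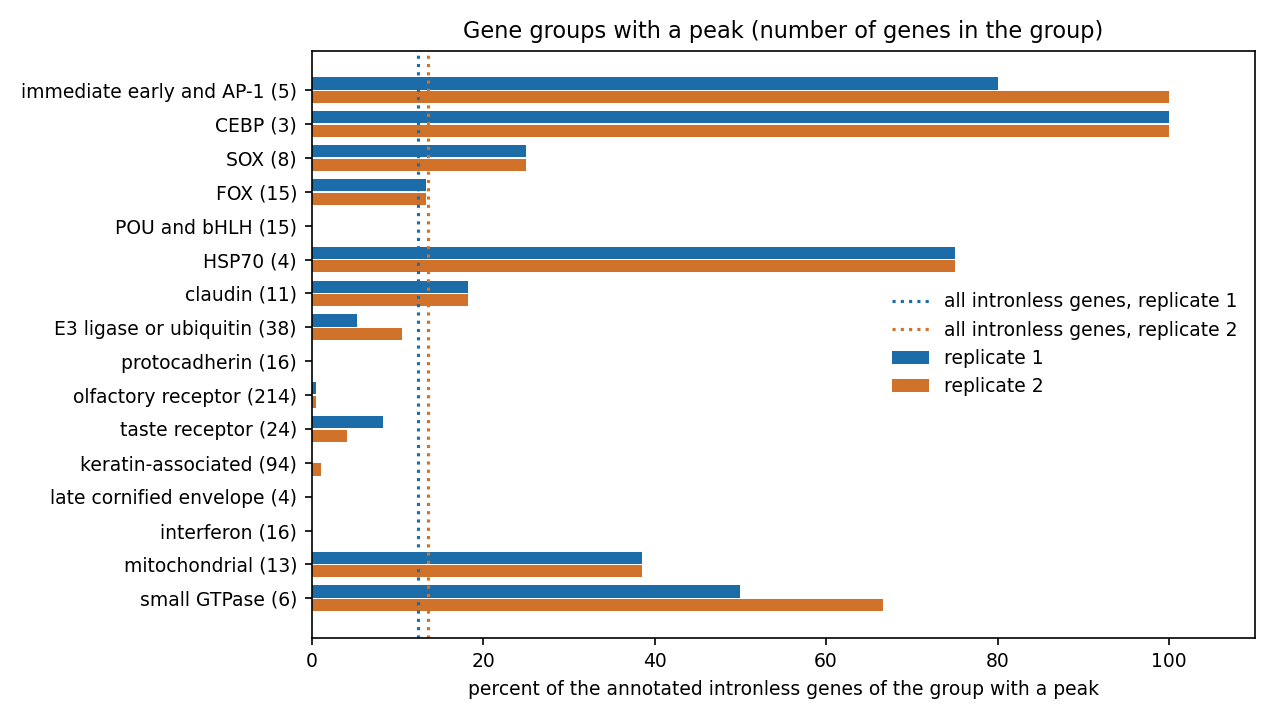
Percent of the annotated intronless genes of each group with a peak in replicate 1 (blue) and replicate 2 (orange), with the number of genes of the group in brackets and dotted lines for all intronless genes (12.4% and 13.6%). Both CEBP bars reach 100% and the olfactory receptor bars stand at 0.467%.

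The AP-1 genes encode the JUN subunits of a transcription factor that growth factors and stress induce. JUND (chr19:18279694-18281622, minus strand) had 3 peaks in replicate 1, at 8.82-fold and 6.82-fold in the coding sequence and 5.34-fold in the 3′ UTR. Replicate 2 had a single peak of 1721 bp at 8.34-fold there, and peaks covered 78.9% and 89.2% of the transcript. Thus 1 wide region in replicate 2 stood where replicate 1 was called as 3. JUNB (chr19:12791486-12793315, plus strand) had 2 peaks in each replicate, at 7.14-fold and 5.65-fold in replicate 1 and 5.81-fold and 8.82-fold in replicate 2, the downstream peak overlapping an exon of HOOK2 as well. JUN (chr1:58780791-58784047, minus strand) had a coding peak in each, at 5.98-fold and 6.39-fold, and a further 5′ UTR peak of 4.22-fold in replicate 2. IER5L, an immediate early response gene, had 2 peaks in each replicate between 4.96-fold and 7.45-fold, and its relative IER5 had 1 peak of 4.86-fold in replicate 2 alone.

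CEBP factors bind CCAAT-containing enhancers and act in differentiation. CEBPB (chr20:50190830-50192668, plus strand) had coding peaks of 5.50-fold and 8.32-fold in replicate 1 and a single one of 12.8-fold in replicate 2, all overlapping an exon of the antisense gene CEBPB-AS1. The deposited peaks carry no strand, so these reads cannot be given to either gene. CEBPA (chr19:33299934-33302534, minus strand) had peaks of 6.85-fold and 5.14-fold, and in replicate 2 of 5.81-fold, over 2009 bp, and 3.97-fold. All but the last overlapped an exon of ENSG00000267580 or ENSG00000267727 as well, so they too cannot be given to CEBPA alone. CEBPD had 1 coding peak in each replicate, at 5.85-fold and 6.31-fold. All 3 genes thus had overlapping peaks in both replicates.

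Among SOX factors, which set cell identity, 2 of 8 had peaks. SOX12 (chr20:325552-330224, plus strand) held the site printed above and another, at 5.14-fold and 4.48-fold in replicate 1 and 5.07-fold and 5.43-fold in replicate 2, 1 near each end of the coding sequence. SOX4 (chr6:21593751-21598619, plus strand) had 1 peak of 5.51-fold in the 3′ UTR in replicate 1 and 2 coding peaks of 3.95-fold and 7.75-fold in replicate 2, and none overlapped. So the SOX12 sites recurred and the SOX4 sites did not. Of 15 forkhead factors, FOXQ1 had 3 and 2 peaks between 5.10-fold and 8.40-fold, FOXD1 had 1 of 5.96-fold in replicate 1 and FOXC1 1 of 4.03-fold in replicate 2.

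The epithelial genes were covered along most of their length. CLDN3 and CLDN4, claudins of tight junctions, were the 2 of 11 intronless claudins with a peak. CLDN4 (chr7:73830996-73832690, plus strand) had peaks of 5.24-fold at its 5′ end and 9.90-fold toward the 3′ UTR in replicate 1, and 1 of 9.22-fold over 1622 bp in replicate 2. CLDN3 (chr7:73768997-73770270, minus strand) had 1 peak in each, at 7.51-fold and 10.2-fold, covering 79.8% and 93.2% of its transcript, start and stop codons included.

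**Figure D4:**
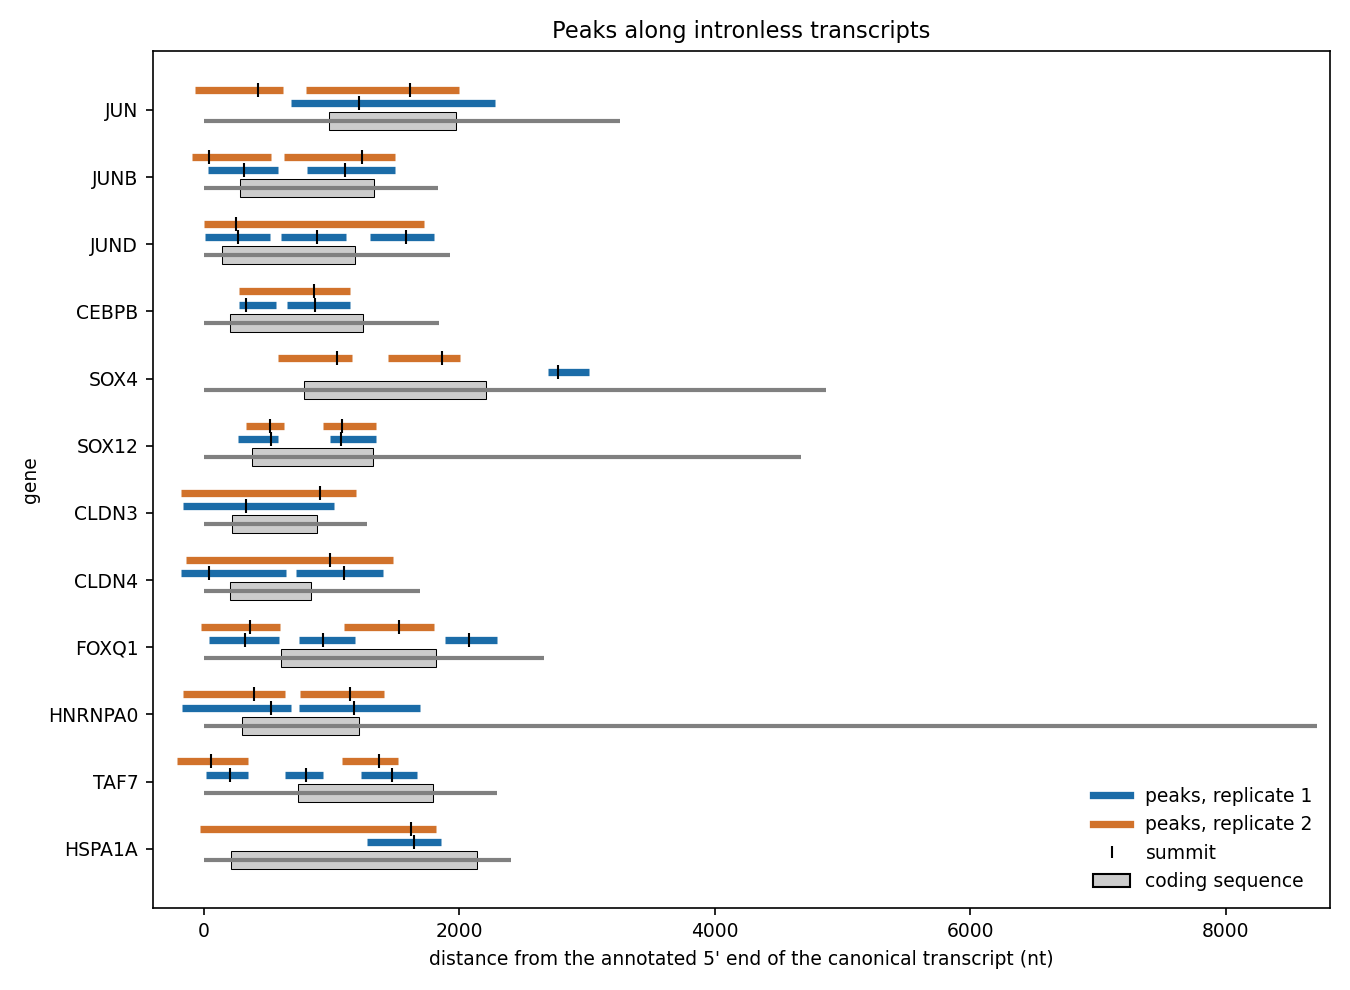
Peaks of replicate 1 (blue) and replicate 2 (orange) along the canonical transcripts of 12 intronless genes, with the summit as a tick and the coding sequence as a grey box; the horizontal axis is the distance in nt from the annotated 5′ end. SOX12 shows 2 sites at the same place in each replicate, and JUND 3 peaks in replicate 1 where replicate 2 has 1.

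Genes of protein quality control came next in the lists. HSPA1A (chr6:31815543-31817942, plus strand), the stress-induced HSP70 chaperone, had 1 coding peak in each replicate, at 12.7-fold and 8.44-fold, and the neighboring HSPA1B had coding peaks of 8.51-fold and 8.76-fold. The HSPA1A summit windows match HSPA1B at all 101 bases, so the fragments could come from either gene. HSPA2 had a peak of 7.80-fold and 8.13-fold whose summit lies at -4781 and -4820 nt relative to the 5′ end of its canonical transcript, on an exon of another gene. Of 38 genes of the ubiquitin system, RNF26 (chr11:119334527-119337309, plus strand), an E3 ligase of the endoplasmic reticulum, had 3 and 2 peaks between 4.56-fold and 7.23-fold. KBTBD7 had 1 peak in each replicate at different places (4.39-fold and 8.0-fold), and KBTBD6 (7.13-fold) and KLHL9 (6.40-fold), substrate adaptors of cullin ligases, had peaks in replicate 2 alone. The KBTBD6 window matches KBTBD7 at 99 of 101 bases, and the replicate 1 window of KBTBD7 matches KBTBD6 at 92. Whether fragments there came from the other gene was not tested.

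Several genes carried separate peaks in both replicates. PGAM4 (chrX:77967949-77969638, minus strand), a retrocopy of the glycolytic enzyme gene PGAM1, had 3 peaks in each, the most of any gene, with its highest, on an exon of the overlapping gene ATP7A, at 13.0-fold and 10.0-fold. There were 19 further genes with at least 2 in each, of which FOXQ1, RNF26, TAF7 and FRAT2 are named by their total and then by name. TAF7, a subunit of the general transcription factor TFIID, had 3 and 2 peaks, with a coding pair of 6.20-fold and 8.87-fold. FRAT2, a Wnt pathway protein that binds GSK3, had 2 and 3, with its 5′ UTR peak at 5.54-fold and 9.29-fold on an exon of another gene.

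Among peaks that overlapped no exon of another gene, ranked by the lower of the 2 replicates' fold percentiles, the leading genes were mostly copies of other genes. CHMP1B (12.7-fold and 14.4-fold), PCBP1 (10.5-fold in each) and ENSG00000288614 (15.9-fold and 13.8-fold), none with a near-identical copy, also had high folds but lay on such an exon and were not ranked. H3-5, a histone H3.3 variant gene copied from H3-3B, came first at 18.9-fold and 16.8-fold, with pileups of 56 and 43. UQCRHL, a copy of the complex III hinge protein gene UQCRH, had 19.9-fold and 16.05-fold, its summits 29 and 23 nt before the annotated 5′ end. NUDT4B (16.3-fold and 14.7-fold), NACA2 (15.2-fold and 13.95-fold) and CSNK1A1L (13.6-fold and 15.7-fold) are copies of NUDT4, of the nascent-chain protein gene NACA and of casein kinase 1 alpha. The olfactory receptor OR2A4 had 13.8-fold and 14.8-fold, and its windows match the transcript of OR2A7 at 101 of 101 bases. RTL8A, RTL8B and RTL8C, 3 near-identical Gag-like genes of the X chromosome, had 13.4-fold, 19.8-fold and 10.1-fold in replicate 1 and 11.2-fold, 11.2-fold and 11.6-fold in replicate 2. HSPA1A, described above, also ranked among the 15 genes taken from these peaks, and the other 5 were SF3B5, CTAGE6, CLDN4, TBCC and JUND. SF3B5, a splicing factor subunit, had 12.02-fold and 11.2-fold, and the tubulin cofactor TBCC 8.24-fold and 10.3-fold. CTAGE6, of a family of closely related intronless genes, had 11.2-fold and 9.90-fold. The 31 bases at its replicate 1 summit occur 5 times in the genome, though the 101-base window matched another gene's transcript at only 66 bases.

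**Figure D5:**
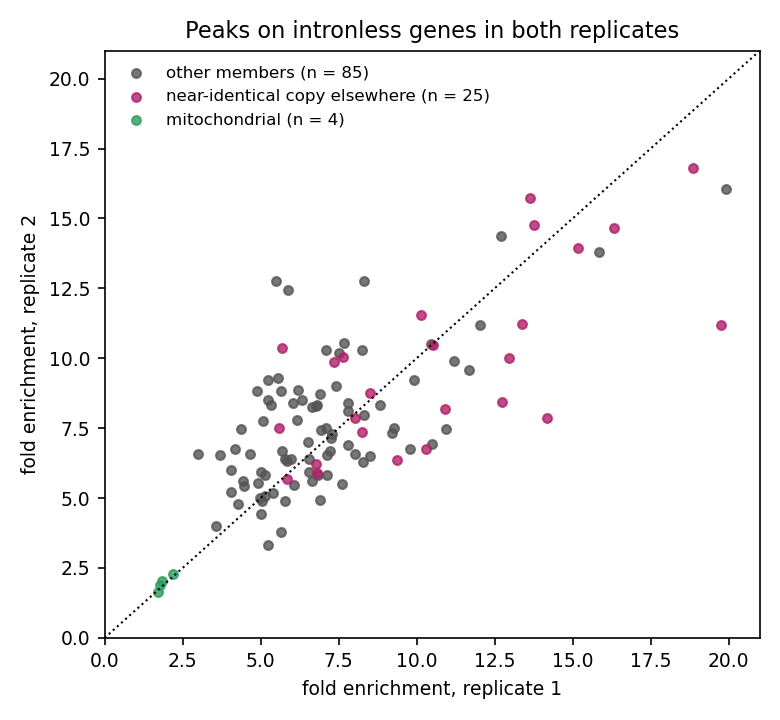
Fold enrichment in replicate 1 against replicate 2 for the 114 pairs of overlapping peaks on the same intronless gene, with pairs that have a near-identical copy in magenta (n = 25), mitochondrial pairs in green (n = 4) and the others in grey (n = 85). The dotted line marks equal values, and the mitochondrial pairs sit lowest. A replicate 2 peak can stand in several pairs.

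How little separates a copy from its parent shows in the sequence. The 61 bases around the replicate 1 summit are given for 4 copies, 5′ to 3′ in hg38, with the bases that differ from the parent's spliced transcript in capitals. They lie in the coding sequence at chr12:31791999-31792059, minus strand, for H3-5, at chr17:61590791-61590851, minus strand, for NACA2, at chr13:37104430-37104490, minus strand, for CSNK1A1L, and at chr1:148749019-148749079, plus strand, for NUDT4B, whose window is found letter for letter in NUDT4. In the others 1, 5 and 6 of 61 bases differ.
H3-5: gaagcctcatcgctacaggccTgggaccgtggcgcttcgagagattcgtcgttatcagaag
H3-3B: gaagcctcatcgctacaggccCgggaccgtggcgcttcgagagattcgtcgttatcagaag
NACA2: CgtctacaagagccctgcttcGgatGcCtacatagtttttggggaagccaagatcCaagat
NACA: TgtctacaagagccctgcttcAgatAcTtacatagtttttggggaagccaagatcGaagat
CSNK1A1L: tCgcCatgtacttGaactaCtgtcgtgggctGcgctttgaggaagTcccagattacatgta
CSNK1A1: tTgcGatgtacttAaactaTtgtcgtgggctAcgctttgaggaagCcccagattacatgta
NUDT4B: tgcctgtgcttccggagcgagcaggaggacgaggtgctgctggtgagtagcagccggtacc

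A near-identical copy was counted where at least 90 of the 101 bases around the summit matched a transcript of another gene, a limit chosen after these values were seen. This held for 36 peaks on 31 genes and 32 peaks on 27 genes. Their median fold was 8.71 and 8.10, against 6.26 and 6.71 for the other members outside the mitochondrial genome and 6.89 and 7.13 for all peaks. Their median pileup was 31 and 21.5 against 24.5 and 23, and their local background 2.07 and 1.65 fragments against 3.15 and 2.67. For all peaks the median pileup was 22 and 22 and the local background 2.05 and 1.79. So against the other members the higher fold went with a lower local background, while the pileup was higher in replicate 1 alone. Against all peaks the local background of the copies was close, and their pileup was again higher in replicate 1 alone. Of 16 copies whose parent has several exons, 13 parents carried a peak of their own in each replicate, among them H3-3B (9.44-fold and 8.80-fold) and NUDT4 (9.12-fold and 15.4-fold). Among all other protein-coding genes, those neither intronless nor left out as histone genes, 42.6% and 43.7% carried a peak. Whether a read on a copy came from the parent was not tested.

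Placed on the parent's spliced transcript, the summits on copies gave a view of positions that are exon junctions in the parent. Among summits in the coding sequence, 10 of 19 (52.6%, 31.7 to 72.7) in replicate 1 and 5 of 12 (41.7%, 19.3 to 68.0) in replicate 2 lay within 25 nt of such a junction, against 32.5% and 31.9% of the bases of the parents' coding sequences. Both intervals included that share. With summits outside the coding sequence added, the counts were 10 of 21 and 5 of 16. Near a junction in both replicates were NUDT4B, at -2 and -5 nt from a junction of NUDT4, H3-5, at 13 and 2 nt from one of H3-3B, NACA2, at -21 and 13 nt from junctions of NACA, and a peak of the casein kinase 2 copy CSNK2A3, at 3 and 8 nt.

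Letters around the summit followed the region more than a motif. In the 101 bases centered on the summit, GGAC, searched on the gene strand, was present in 54 of 117 (46.2%, 37.4 to 55.2) and 53 of 113 (46.9%, 38.0 to 56.1), against 34.6% and 35.0% of all windows of the same length in the same transcripts and 39.8% and 44.1% of those in the same region. TGGAC, which contains it, was in 22.2% and 13.3% against 13.3% and 14.6% of windows in the same region. The m6A consensus DRACH, where D is any base but C, R is A or G and H is any base but G, was in 77.8% and 69.0% against 76.6% and 74.0%. A run of T, TTTTT, was in 6.84% and 1.77% against 9.68% and 6.11%. Only the TGGAC interval of replicate 1 (15.6 to 30.6) left out the share of its own region, and in replicate 2 it did not (8.21 to 20.8). Mean GC content was 58.5% and 63.8%.

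Mitochondrial genes, which are intronless and encode subunits of the respiratory chain, stood apart in height. Their 5 peaks in each replicate lay on MT-CO1, MT-CO2, MT-ND5 and MT-CYB, and 1 of the MT-CYB peaks in each replicate overlapped MT-ND6 too. Pileups were 252 to 298 in replicate 1 and 175 to 255 in replicate 2, the highest of all members, and folds 1.62 to 2.19 and 1.63 to 2.41, the lowest. For MT-CO2, a cytochrome c oxidase subunit gene, the pileup was 298 and 255 at 1.83-fold and 2.04-fold. Thus the deepest stacks of fragments gave the smallest folds, and 4 of 5 and 5 of 5 recurred.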

How the data were processed

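Peaks of IGF2BP3 LACE-seq were deposited by the authors as 1 list for each of 2 replicates of OE-19 cells, on hg38. The authors' deposited lines give a region, its summit, a whole-number score made by the peak caller (not used here), a fold enrichment (a ratio to local background), and a p-value and q-value as −log10, and no read counts or strand. The submitters' processing notes name fastp, HISAT2 and MACS2, the study's methods another aligner and caller, and the layout deposited is that of MACS2. The methods give settings for their aligner and caller, under which a read could match several places of the genome, while versions, and settings of the tools in the notes, are not given in the sources used here. Library totals are not in the lists, so pileup and background were recovered from the deposited fold and p-value, with a largest error of 0.000277 in −log10 p. Reads that match several genes may have been placed at one of them or at several, which bears on copies.

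The members and lists were chosen with earlier results of these data known. Peaks were joined to GENCODE release 44 in Python 3.11.15 with pandas 2.3.3 and pysam 0.24.0, and summit windows of 101 bases were matched to transcripts with blastn 2.17.0. Shares carry Wilson 95% intervals (scipy 1.17.1), which cover counting error alone, and means are over 2 replicates. No test was made, since the series holds a single group. Positions were read on peaks that overlap no exon of another gene. Named are the 15 genes with the highest lower fold percentile among peaks on no exon of another gene, the 5 with most peaks in both replicates, and every gene with a peak in 6 fixed families; other genes were named after their values were seen. Scripts were tested on simulated data.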

Additional observations from a re-analysis of the deposited data

How the results depend on the processing

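Of 67 values under another setting, 50 moved by no more than the SD between the replicates. Recurrence of 63.6% became 44.5% where the overlap had to reach 50% of each peak, and 22.8% for summits within 50 bp. The coding ratio of 1.61 became 1.77 with 1 peak per gene and 1.69 with the middle of the peak in place of the summit. With the summit moved downstream the 3′ UTR ratio was 0.578, the 5′ UTR ratio 0.721 and the stop codon ratio 1.60. The summit offset of 1.75 nt became -0.875 nt with genes of single-exon transcripts alone, -5.38 nt where the 31 bases at the summit have no second copy in the genome, and 3.88 nt with every member outside the mitochondrial genome. The share past the 3′ end, 1.69%, became 1.11%, 0.957% and 7.03% in these settings, 1.40% with −log10 q of at least 10 and 2.30% with 1 peak per gene. In settings added after seeing the data it was 1.05% without near-identical copies and 0.855% with peaks that touch the transcript. Without either replicate, every one of the 8 results stayed within the SD, by construction of n = 2. The causes of these moves were not tested. Depth limits the small regions, where 11 to 29 summits set a share.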

Other observations

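Genes with no symbol held 8 and 9 of the peaks. Of 44 such genes 9 and 11 carried a peak by overlap, and 4 did in both replicates. The bitter taste receptor gene TAS2R14 had 2 overlapping peaks in each replicate, none of them on that transcript. In all, 6 and 9 members did not touch the canonical transcript of their gene.

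Members were more often on minus-strand genes, as were other peaks. Of the peaks read for position, 72 of 119 (60.5%, Wilson 95% interval 51.5 to 68.8) and 67 of 118 (56.8%, 47.8 to 65.4) lay on minus-strand genes, while 498 of 1057 intronless genes are on that strand. Among other protein-coding peaks touching 1 gene the share was 69.0% and 67.3%, and among all protein-coding genes 49.3%. With the near-identical copies left out it was 62.8% and 54.6%. What sets these shares was not tested.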
